A study of Caenorhabditis elegans with 6 samples.

Results

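The fbxa genes of *C. elegans* encode proteins with an F-box near the amino terminus and, in most members, a second conserved region known as the FTH or DUF38 domain. Members were taken by name, as every gene in the count tables whose WormBase symbol is fbxa- followed by a number. This gave 222 of 46772 genes counted, 170 annotated as protein-coding and 52 as pseudogenes. RNA was sequenced from gonads that had been dissected from young adult hermaphrodites of 2 genotypes and cut to keep the distal arm. *set-2(bn129)* animals (3 libraries) carried a loss-of-function allele of *set-2*, which encodes the H3K4 methyltransferase of the COMPASS complex. They were homozygous offspring of heterozygous mothers from a strain kept over the balancer chromosome qC1. Wildtype animals (WT, 3 libraries) were of the N2 strain. Each genotype was a single strain, so that an effect of the allele and other differences between the strains cannot be told apart. Each library pooled gonads of several animals, and nothing states that the libraries came from separate cultures, so p-values measure the spread between these libraries only.

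F-box proteins are the substrate receptors of SCF ubiquitin ligases. In this complex a cullin scaffold carries the RING protein RBX-1 at an end and a Skp1-related protein (SKR in worms) at the other. The F-box binds the SKR protein, and the remainder of the F-box protein holds the target that is to be ubiquitinated. Nematodes have an unusually large and fast-evolving set of F-box genes, many of them in tandem arrays on chromosome arms, and most fbxa genes have no known target. FBXA-75 and FBXA-158 are known to act with the cullin CUL-6 in the response to intracellular pathogens. In the germline, FOG-2, a protein of the same F-box and FTH architecture, acts with GLD-1 to permit spermatogenesis in hermaphrodites.

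The libraries held between 23403396 and 30724547 counts assigned to genes. Counts over *set-2* itself were lower in all mutant libraries, at 2247, 2422 and 2554 normalized counts in *set-2(bn129)* and 3829, 4134 and 3898 in WT. Germline and oocyte markers were abundant in every library. Some of them were lower in the mutant, *mex-5* with a log2 fold change of -0.62, *perm-2* of -0.75 and *perm-4* of -0.86, as was the gonadal sheath gene *inx-8* at -1.24. At an edgeR adjusted p of at most 0.05, 1 germline marker was higher and 2 lower, and 0 oocyte markers were higher and 3 lower. The higher germline marker was *him-3* (0.39, adjusted p = 7.8e-05). The sheath genes *lim-7* (0.46, adjusted p = 0.073) and *inx-9* (-0.19, adjusted p = 0.16) did not pass. The sperm markers summed to 53.8 to 79.2 normalized counts in *set-2(bn129)* and 24.5 to 30.7 in WT, and *spe-9* alone, with 35.6 to 59.4 in *set-2(bn129)* and 5.29 to 6.56 in WT, made up that difference. RNA of other tissues was also present and was unequal between the genotypes. The body wall muscle and pharynx markers, all 10 of which fell, summed to 3975, 4094 and 4517 normalized counts in *set-2(bn129)* and 5718, 9713 and 9826 in WT. The intestine markers, of which all 8 tested fell, summed to 3609, 4241 and 1847 in *set-2(bn129)* and 6027, 11105 and 15776 in WT. *myo-1*, *myo-2*, *vit-1* and *asp-1* all had reads in every library. The WT libraries were thus unequal too, with replicate 1 the lowest for both lists. In such samples fewer cells of a type and less RNA per cell cannot be told apart.

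167 of the 222 fbxa genes (75.2%) had at least 1 read in any library, and 55 had none. Of the 167, 106 had too few reads to be tested, with at most 49 reads over all libraries, and 61 passed the filter on low counts. Among protein-coding members 132 of 170 (77.6%) had reads and 42 (24.7%) were tested, against 80.0% and 44.9% of all 19698 protein-coding genes counted. Among pseudogene members 35 of 52 had reads and 19 (36.5%) were tested, against 44.2% and 13.7% of all 2100 pseudogenes counted. The share tested was thus lower than the genome's for protein-coding members and higher for pseudogene members, and this contrast is given as a description with no test. 118 members had 3 counts or fewer in all libraries. Such counts cover counting error only, and a count of 0 is reached with up to 3 reads expected in that library.

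FBXA-75 and FBXA-158, the members with a known role in the pathogen response, were among those without reads. *fbxa-75* and *fbxa-158* had 0 reads in all 6 libraries. Their partner *cul-6* averaged 22.6 ± 4.80 normalized counts in *set-2(bn129)* and 20.0 ± 4.54 in WT (SD, n = 3 each), a difference within the spread of the libraries (edgeR adjusted p = 0.67). *skr-5*, another Skp1-related gene of this response, had 0, 1 and 1 reads in *set-2(bn129)* and 0, 0 and 1 in WT.

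Members lay on every chromosome but were concentrated on V (92 genes) and III (73 genes), and these chromosomes differed in how many members had enough reads to test. On chromosome V 30 of 92 members were tested, and on III 9 of 73. On chromosome I 11 of only 13 members were tested, 7 of the 13 being pseudogenes. Long arrays held a larger share of members without reads. Members were joined into a run where the gap to the next member was at most 10 kb, which gave 37 runs holding 160 members. Of the 94 members in runs of 5 or more, 33 (35.1%) had no reads and 11 (11.7%) were tested. Of the 66 members in runs of 2 to 4, 7 (10.6%) had no reads and 29 (43.9%) were tested, and of the 62 members that stood alone, 15 (24.2%) had none and 21 (33.9%) were tested. The longest run held 29 members within 88.6 kb of the left part of chromosome III, *fbxa-75* among them. Of these, 8 had no reads, 2 could be tested and none was called (0 at an unadjusted p below 0.05, and 0 by DESeq2). Removal of reads of low mapping quality lowers counts of genes with near-identical copies, and its part in the low counts of the long runs was not tested.

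**Figure D1:**
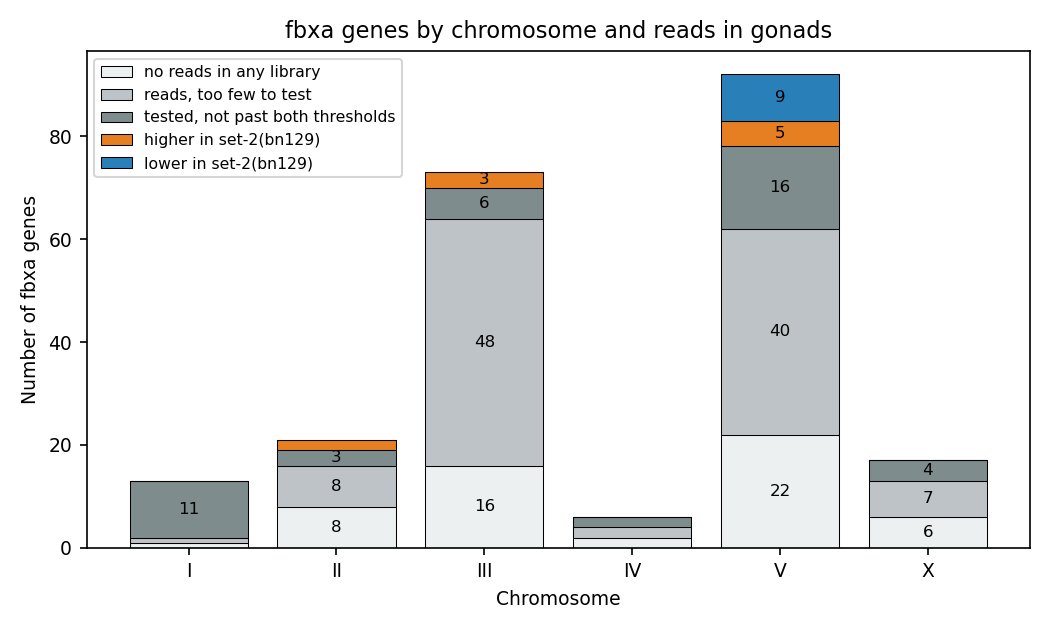
Number of fbxa genes on each chromosome (vertical axis, count of genes), divided by whether they had reads in the gonad libraries, enough reads to be tested, and a call higher or lower in *set-2(bn129)*. Chromosomes III and V hold most members, on III most of them had too few reads to test, and all 9 lower genes are on V.

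*fbxa-215* on chromosome IV, a member of unknown function, had the highest level per kilobase of exon of the family in WT. It had 5662, 5272 and 5442 normalized counts in *set-2(bn129)* and 5518, 5347 and 5632 in WT. The genotypes overlapped fully, with 4059 ± 145 normalized counts per kilobase in *set-2(bn129)* and 4088 ± 107 in WT (SD, n = 3 each), a log2 fold change of -0.01 (SE 0.04, edgeR adjusted p = 0.85). It took 26.4 to 27.6% of all fbxa counts in *set-2(bn129)* libraries and 24.0 to 25.1% in WT libraries. In WT 94.4% of all genes tested were at or below its level, so that *fbxa-215* ranked among the well expressed genes of the gonad.

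The other members were far less abundant. The median member tested had 119.8 normalized counts per kilobase in WT, against 507 for all 9431 genes tested. *fbxa-101* on chromosome I followed with 1548 ± 45.5 normalized counts per kilobase in *set-2(bn129)* and 1492 ± 14.6 in WT. *fbxa-206* on V had 1091 ± 34.7 in *set-2(bn129)* and 962 ± 15.7 in WT, and *fbxa-114* on V 770 ± 21.4 in *set-2(bn129)* and 825 ± 5.04 in WT. *fbxa-95* on V had 524 ± 39.0 in *set-2(bn129)* and 542 ± 5.98 in WT, and was thus close to the median of all genes. Of these, *fbxa-206* passed the adjusted p with a log2 fold change of 0.18 (SE 0.05, adjusted p = 0.010), below the fold threshold, while *fbxa-101*, *fbxa-114* and *fbxa-95* did not pass (adjusted p = 0.32, 0.15 and 0.61). Among the 10 highest stood an annotated pseudogene, *fbxa-203* on chromosome I, with 553 ± 17.1 normalized counts per kilobase in *set-2(bn129)* and 629 ± 71.5 in WT (adjusted p = 0.086). The remaining 4 of the 10 highest, *fbxa-210*, *fbxa-108*, *fbxa-211* and *fbxa-192*, were all lower in the mutant and are described with their runs.

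A gene was called where the edgeR adjusted p was at most 0.05 and the log2 fold change, mutant over WT, was at least 0.58 in either direction. Of the 61 fbxa genes tested, 10 were higher in *set-2(bn129)* (16.4%, against 6.99% of all 9431 genes tested) and 9 were lower (14.8%, against 8.36%). In either direction 31.1% of members were called, against 15.3% of all genes. By the adjusted p alone 28 members (45.9%) passed, 13 higher and 15 lower, against 41.4% of all genes. The libraries of the genotypes did not overlap for 20 members that were above and 18 that were below WT, and such separation was found for 52.9% of all genes tested. Changes past the adjusted p but under the fold threshold were seen in 9 members (14.8%), against 26.1% of all genes. The filter also shaped these counts. Every member tested had at least 10 counts in each *set-2(bn129)* library, whereas 8 had fewer than 10 in at least 1 WT library and so passed through the mutant libraries, and 4 of these 8 (*fbxa-4*, *fbxa-10*, *fbxa-42* and *fbxa-167*) are among the 10 higher. With at least 10 counts in every library 6 of 53 members were higher (11.3%, against 5.56% of all 8416 genes then tested) and 9 were lower (against 7.44%). The median log2 fold change of the members was 0.04, against -0.0009 for all genes. Called genes were more common overall among weakly expressed genes, and 41 of the 61 members lay in the lowest classes by level. With all genes divided by level into 5 classes of equal size, 29.1% of the lowest class and 30.8% of the next were called, and 5 of 12 and 7 of 29 members in them. In the third class 6 of 17 members were called, all lower, against 12.2% of all genes, in the fourth 1 of 2 against 2.49%, and in the highest class the single member was not called, against 2.12%.

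The 10 higher and the 9 lower members differed in level and in place. The median WT level was 20.6 normalized counts per kilobase for the higher members and 520 for the lower. The higher members lay on chromosomes II (2), III (3) and V (5), and all 9 lower members lay on V. On V 5 of 30 members were higher, against 8.01% of all genes tested on V, 9 were lower, against 12.3%, and 14 of 30 (46.7%) were called in either direction, against 20.3%. None was called among the 17 members tested on chromosomes I, IV and X, where 3 were higher and 6 lower at an unadjusted p below 0.05 by edgeR and DESeq2 called 0. On these chromosomes 15.7% of all 4510 genes tested were called. The exons of no called member overlap those of another annotated gene, and sequence shared with other members was not examined. Among the 42 protein-coding members 9 were higher and 6 lower (35.7%, against 14.8% of all 8850 protein-coding genes tested), and among the 19 pseudogenes 1 was higher and 3 lower (21.1%, against 26.7% of all 288 pseudogenes tested).

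**Figure D2:**
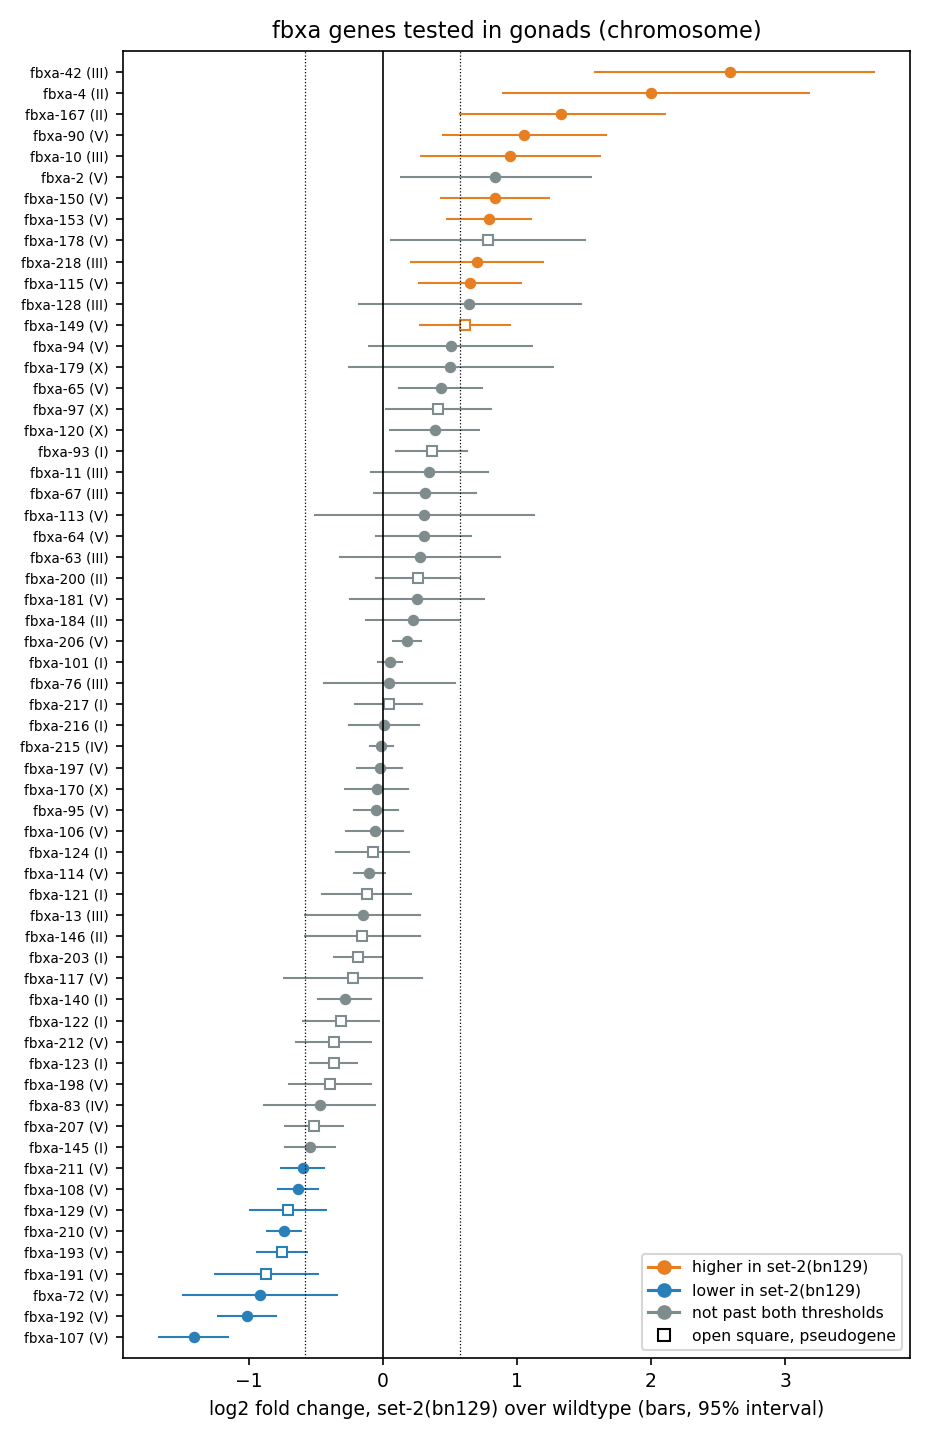
Log2 fold change of *set-2(bn129)* over WT (horizontal axis) for the 61 fbxa genes tested, with the 95% interval as a bar and the chromosome in brackets. Dotted lines mark 0.58 in either direction, filled circles are protein-coding genes and open squares pseudogenes. The higher end has wide intervals, up to *fbxa-42* at 2.59, and the lower end has narrow ones, down to *fbxa-107* at -1.41.

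8 of the 9 lower members lay in 2 runs on the right arm of chromosome V, 465 kb apart. The first run, at V:17637982-17659385 of the WBcel235 assembly, holds *fbxa-191*, *fbxa-192*, *fbxa-193*, *fbxa-129* and *fbxa-108*. All 5 were tested and all 5 were lower. The second, at V:18123939-18136022, holds *fbxa-107*, *fbxa-210*, *fbxa-211* and *fbxa-212*, and the first 3 of these were lower. Outside these runs 52 members were tested, of which 10 were higher and 1 was lower, where 6.99% and 8.36% of all genes tested were called. The runs were singled out after the calls were seen, and no test was made of their grouping. The low number of lower members outside them is in part set by that choice.

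In the first run the protein-coding members are *fbxa-192* and *fbxa-108*. *fbxa-192* (WBGene00010212) had 322, 373 and 333 normalized counts in *set-2(bn129)* and 737, 740 and 593 in WT. Every mutant library was far below every WT library, and the log2 fold change was -1.01 (SE 0.10, adjusted p = 2.8e-05). *fbxa-108* (WBGene00010293) had 444, 466 and 431 normalized counts in *set-2(bn129)* and 711, 674 and 693 in WT. The libraries of each genotype lay close together and the groups did not overlap, with a log2 fold change of -0.63 (SE 0.07, adjusted p = 4.9e-05).

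The other 3 genes of the first run are annotated as pseudogenes and fell with their coding neighbours. *fbxa-191* had 84.4, 109 and 82.7 normalized counts in *set-2(bn129)* and 193, 176 and 134 in WT, a log2 fold change of -0.87 (SE 0.17, adjusted p = 0.0024). *fbxa-193* had 387, 362 and 328 in *set-2(bn129)* and 641, 586 and 581 in WT, a log2 fold change of -0.75 (SE 0.09, adjusted p = 7.2e-05). *fbxa-129* had 228, 183 and 185 in *set-2(bn129)* and 367, 325 and 280 in WT, a log2 fold change of -0.70 (SE 0.13, adjusted p = 0.0014). In none of the 3 did the genotypes overlap, and the fall in these pseudogenes was between those of *fbxa-192* and *fbxa-108*. Summed over the run there were 1440 ± 70.1 normalized counts in *set-2(bn129)* and 2477 ± 185 in WT (SD, n = 3 each), so that the mutant kept 58.1% of the WT level.

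In the second run *fbxa-107* showed the largest fall of the family. *fbxa-107* (WBGene00012564, V:18123939-18125235, plus strand) had 154, 182 and 141 normalized counts in *set-2(bn129)* and 397, 406 and 462 in WT. The highest mutant library was below each WT library by more than the whole spread within either genotype, and the log2 fold change was -1.41 (SE 0.12, 95% interval -1.67 to -1.15, adjusted p = 9.1e-06). *fbxa-210*, the next gene on the same strand and the third highest of the family per kilobase in WT, had 1183, 1107 and 1040 normalized counts in *set-2(bn129)* and 1789, 1777 and 1961 in WT. Its groups were also well apart, with a log2 fold change of -0.73 (SE 0.06, adjusted p = 6.2e-06). *fbxa-211*, next on this strand, had 469, 426 and 438 in *set-2(bn129)* and 716, 645 and 655 in WT, a log2 fold change of -0.60 (SE 0.07, adjusted p = 1.2e-04), the smallest that passed the fold threshold. It missed that threshold alone without *set-2(bn129)* replicate 2 (-0.57) or WT replicate 1 (-0.55). The run ends with the pseudogene *fbxa-212*, which had 203, 177 and 161 in *set-2(bn129)* and 232, 208 and 256 in WT. Here too the groups did not overlap, and the log2 fold change of -0.36 (SE 0.13, adjusted p = 0.039) stayed under the fold threshold. Each of the 4 members was thus lower in every mutant library, by amounts that differed between them. The sum was 1894 ± 113 normalized counts in *set-2(bn129)* and 3168 ± 152 in WT, or 59.8% of the WT level.

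The genes between and around these members were not called. Inside the second run lie 3 other genes, all tested, *Y37H2A.7*, *Y37H2A.12* and *Y37H2A.18*, with log2 fold changes of -0.25, -0.19 and -0.22 (adjusted p = 0.23, 0.063 and 0.25). They point the same way as the fbxa members and none passed the thresholds (1 was lower at an unadjusted p below 0.05, and DESeq2 called 0). No other gene lies inside the first run. Within 25 kb on either side of the runs 5 other genes were tested and 0 were called by edgeR or DESeq2, with 1 higher at an unadjusted p below 0.05. Most genes around the first run had too few reads to test, 1 of 26 passing the filter.

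**Figure D3:**
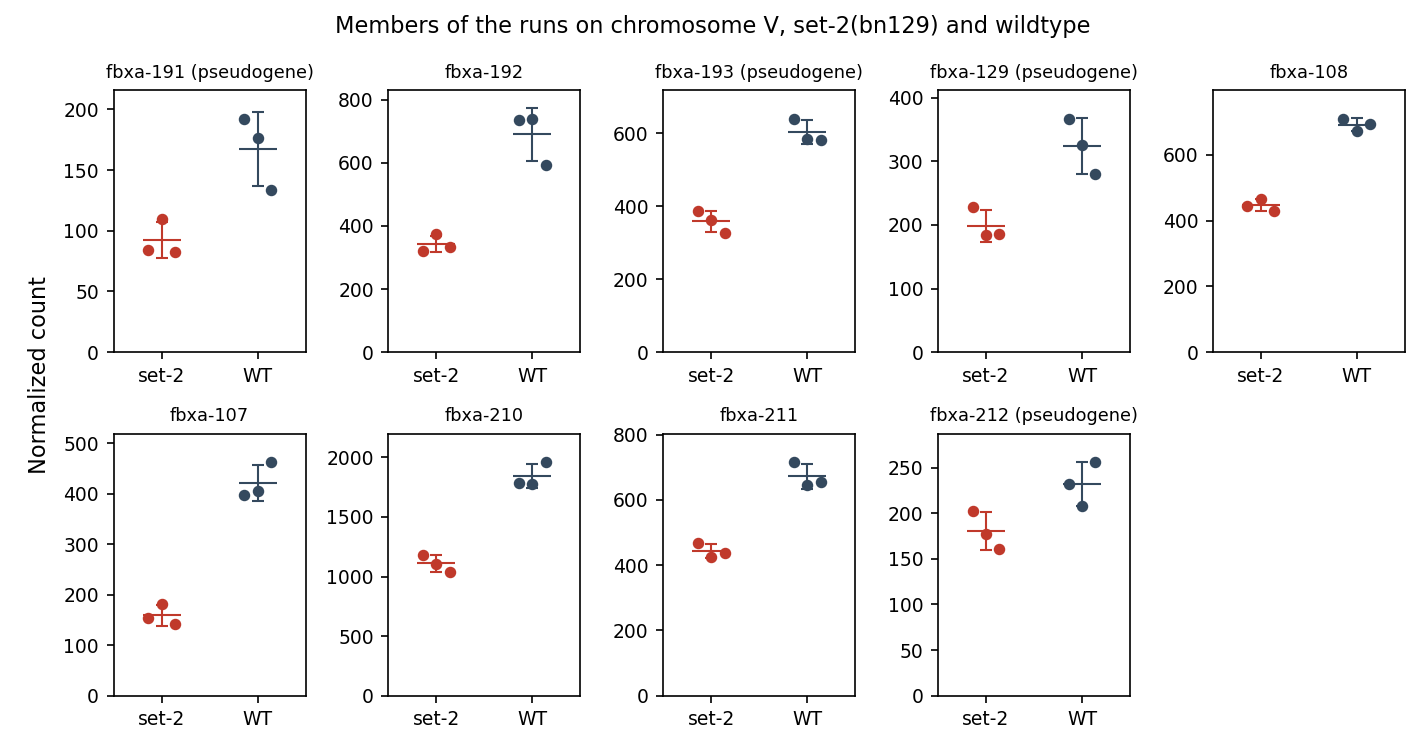
Normalized counts (vertical axes from 0) of the 9 fbxa genes in the 2 runs on chromosome V, the first run above and the second below, in the order of the chromosome. Points are libraries, *set-2(bn129)* left and WT right, and bars give the mean and SD of 3 libraries. In every panel all mutant points lie below all WT points, most widely apart for *fbxa-107*.

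The summed counts of the family differed by about as much as those of the 2 runs. Summed over all 222 members there were 20221 ± 630 normalized counts in *set-2(bn129)* and 22466 ± 469 in WT, so the mutant had 2245 fewer. The 2 runs alone had 3334 ± 172 in *set-2(bn129)* and 5645 ± 125 in WT, a difference of 2311, and made up 16.5% and 25.1% of the family's counts. Without them the sums were 17456, 16622 and 16584 in *set-2(bn129)* and 17181, 16493 and 16789 in WT, and overlapped. As the runs were chosen by their calls, these sums are a description.

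The remaining lower member was *fbxa-72*, near the left end of chromosome V and far from the runs. It had 29.1, 33.3 and 33.1 normalized counts in *set-2(bn129)* and 39.1, 74.4 and 67.0 in WT. WT replicate 1, the WT library with the least muscle and intestine RNA, lay close to the mutant libraries. The log2 fold change was -0.91 (SE 0.26, adjusted p = 0.016), and became -0.30 (adjusted p = 0.55) when WT replicates 2 and 3 were left out together, an alternative chosen after the data were seen, as is the next. It was 0.04 (adjusted p = 0.97) with the level of muscle and intestine markers in the fit. Without *set-2(bn129)* replicate 1, WT replicate 2 or WT replicate 3 its adjusted p was 0.056, 0.075 or 0.051. The 8 lower members of the runs kept a negative log2 fold change without WT replicates 2 and 3 and also with the marker level in the fit. Just under the fold threshold on this side was *fbxa-145* on chromosome I, at -0.54 (SE 0.09, adjusted p = 5.5e-04).

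The largest rise was seen in 2 scarce members of which little is known. *fbxa-42* on chromosome III had 31, 26 and 42 reads in *set-2(bn129)* and 9, 3 and 2 in WT. Few reads were thus present in WT, where 2 of 3 libraries had at most 3, the gene was tested only because of its counts in the mutant, and the log2 fold change was 2.59 (SE 0.47, 95% interval 1.58 to 3.66, adjusted p = 6.9e-04). *fbxa-4* on chromosome II had 11, 15 and 26 reads in *set-2(bn129)* and 6, 3 and 2 in WT, a log2 fold change of 2.00 (SE 0.52, adjusted p = 0.0059), and likewise passed the filter through the mutant libraries. For neither did the genotypes overlap, and the intervals were the widest of the called members.

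*fbxa-167* on II, *fbxa-90* on V and *fbxa-10* on III were also scarce. *fbxa-167* had 17.5, 17.7 and 21.5 normalized counts in *set-2(bn129)* and 9.52, 6.56 and 6.38 in WT (log2 fold change 1.33, SE 0.35, adjusted p = 0.0084). *fbxa-90* had 29.1, 29.2 and 37.2 in *set-2(bn129)* and 17.98, 15.3 and 12.8 in WT (1.05, SE 0.28, adjusted p = 0.0098). *fbxa-10* had 25.2, 27.1 and 20.7 in *set-2(bn129)* and 14.8, 13.1 and 9.57 in WT (0.95, SE 0.31, adjusted p = 0.025). All 3 had fewer than 40 normalized counts in each library, and the groups did not overlap. The call of *fbxa-10* was lost without *set-2(bn129)* replicate 1 or 2 (adjusted p = 0.071 and 0.082) and without WT replicate 2 or 3 (adjusted p = 0.064 and 0.092). DESeq2 did not call these genes (adjusted p = 0.073 for *fbxa-167*, 0.054 for *fbxa-90* and 0.14 for *fbxa-10*).

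The other 5 were more abundant and rose less. *fbxa-153* on V, with 227, 193 and 183 normalized counts in *set-2(bn129)* and 133, 105 and 109 in WT, had a log2 fold change of 0.79 (SE 0.14, adjusted p = 0.0013). *fbxa-115* on V had 136, 122 and 122 in *set-2(bn129)* and 95.2, 84.2 and 62.7 in WT (0.65, SE 0.17, adjusted p = 0.011). *fbxa-218* on III had 94.1, 72.9 and 75.3 in *set-2(bn129)* and 65.6, 41.6 and 41.5 in WT (0.70, SE 0.22, adjusted p = 0.025). The groups lay apart in each case, most narrowly for *fbxa-218*. Its adjusted p was 0.0999 without *set-2(bn129)* replicate 1, 0.096 without WT replicate 2 and 0.083 without WT replicate 3, and *fbxa-115* stayed under the fold threshold without WT replicate 3 (0.49).

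*fbxa-149* and *fbxa-150* are neighbours in the family at V:20516298-20524512 and rose together. Inside this stretch lie 2 other genes, *Y38H6C.9* and *Y38H6C.25*, which had too few reads to test. The pseudogene *fbxa-149* had 202, 238 and 243 normalized counts in *set-2(bn129)* and 181, 144 and 121 in WT, a log2 fold change of 0.61 (SE 0.15, adjusted p = 0.0079), the smallest called rise, which was under the fold threshold without *set-2(bn129)* replicate 3 (0.56) or WT replicate 3 (0.48). *fbxa-150* had 102, 99.0 and 112 in *set-2(bn129)* and 71.9, 51.4 and 52.1 in WT, a log2 fold change of 0.84 (SE 0.18, adjusted p = 0.0037). Together they had 332 ± 26.3 normalized counts in *set-2(bn129)* and 207 ± 41.0 in WT, or 160% of the WT level. Within 25 kb of them 4 other genes were tested, of which *dct-10* was called higher (0.83, adjusted p = 0.040) and *dct-16* lower (-1.81, adjusted p = 2.5e-04). Just under the fold threshold was *fbxa-65* on V at 0.43 (SE 0.14, adjusted p = 0.029).

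In all 10 higher members WT replicate 1 was the highest of the WT libraries, as in 41.1% of the 659 genes called higher in all. Their sum was 873, 841 and 872 normalized counts in *set-2(bn129)* and 605, 468 and 420 in WT. Replicate 1 is also the WT library with the least muscle and intestine RNA, and the part of this RNA in the rise was not tested. Compared with WT replicate 1 alone all 10 kept a positive log2 fold change. With the muscle and intestine level as a covariate 0 of the 10 were called (0 higher at an unadjusted p below 0.05) and the log2 fold changes were between 0.01 and 0.74. This covariate was added after the data were seen. It differed between the genotypes, so the fit cannot separate it from genotype. No share of all genes is given for it, so the 0 calls cannot be read as particular to these members. Of the 9 lower members replicate 1 was the lowest WT library in 2, against 52.2% of the 788 genes called lower in all.

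**Figure D4:**
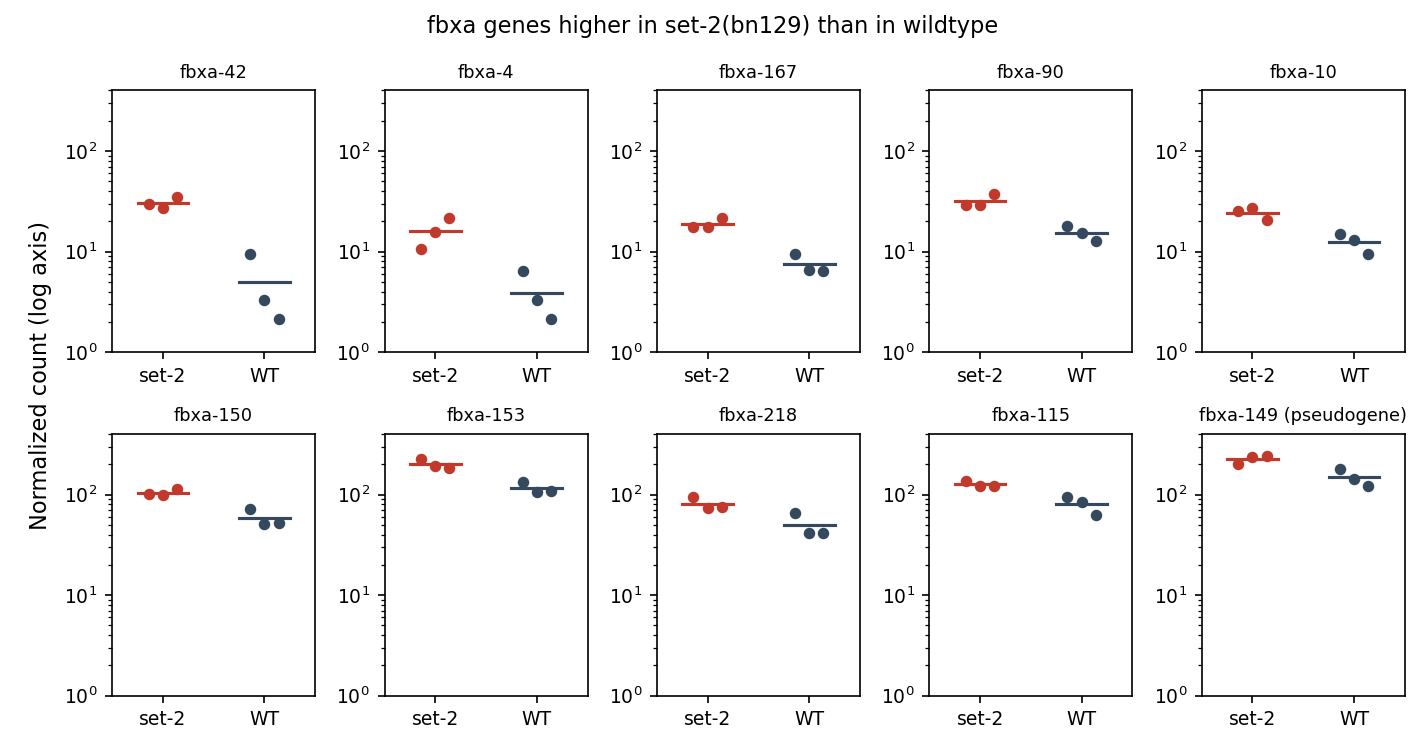
Normalized counts (vertical axes, log scale) of the 10 fbxa genes called higher in *set-2(bn129)*, ordered by fold change. Points are libraries, replicates 1 to 3 from left to right within a genotype, *set-2(bn129)* left and WT right, and lines are means. No panel has overlapping genotypes, and in each the first WT point, replicate 1, is the highest of WT.

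Neighbours did not always move alike. *fbxa-206* and the pseudogene *fbxa-207* are adjacent on chromosome V, and *fbxa-206* was slightly higher (0.18, adjusted p = 0.010) where *fbxa-207* was lower, at 199, 229 and 221 normalized counts in *set-2(bn129)* and 304, 313 and 308 in WT (-0.51, SE 0.10, adjusted p = 0.0016). In the run that holds *fbxa-115*, the far more abundant *fbxa-114* had a log2 fold change of -0.10. Both pairs were chosen after their values were seen.

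Among the 106 members with too few reads to test, 8 (7.55%) passed both thresholds when every gene with a read was tested, against 4.34% of all 9895 genes that entered with this change. 5 were higher, against 1.73% of these genes, and 3 lower, against 2.61%, and their reads are given as counts only. *fbxa-43*, the neighbour of *fbxa-42*, had 6, 9 and 14 reads in *set-2(bn129)* and 1, 0 and 2 in WT. *fbxa-143* had 10, 7 and 14 in *set-2(bn129)* and 2, 1 and 1 in WT, and *fbxa-136* 16, 15 and 9 in *set-2(bn129)* and 2, 4 and 3 in WT. Reads were thus more frequent in each mutant library for these genes, and likewise for *fbxa-166* (12, 9 and 10 in *set-2(bn129)*, 4, 2 and 1 in WT) and *fbxa-220* (7, 3 and 3 in *set-2(bn129)*, none in WT). The reverse was seen for *fbxa-182*, the neighbour of *fbxa-4*, with 0, 2 and 0 reads in *set-2(bn129)* and 4, 14 and 6 in WT. *fbxa-190* had none in *set-2(bn129)* and 4, 3 and 5 in WT, and *fbxa-74* 1, 2 and 1 in *set-2(bn129)* and 5, 6 and 7 in WT.

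Of the SCF subunits, the abundant *cul-1*, *skr-1*, *skr-2* and *rbx-1* changed by less than the fold threshold. *cul-1*, the cullin of SCF ligases, averaged 2998 ± 147 normalized counts in *set-2(bn129)* and 3402 ± 19.6 in WT (log2 fold change -0.18, SE 0.04, adjusted p = 0.0047). *skr-1* had 2406 ± 34.5 in *set-2(bn129)* and 2802 ± 53.9 in WT (-0.22, SE 0.04, adjusted p = 7.1e-04), and its close copy *skr-2* 3797 ± 106 in *set-2(bn129)* and 4404 ± 76.6 in WT (-0.21, SE 0.04, adjusted p = 9.1e-04). Reads from these copies may be divided or lost between them. These falls passed the adjusted p and not the fold threshold, and *rbx-1*, with 2479 ± 128 in *set-2(bn129)* and 2392 ± 28.0 in WT, passed neither (adjusted p = 0.36). Each of these genes had more normalized counts than all fbxa genes but *fbxa-215*. *skr-3* had 68.9 ± 11.98 normalized counts in *set-2(bn129)* and 70.8 ± 15.6 in WT (adjusted p = 0.89), and *skr-4* was too scarce to test, with 6, 6 and 12 reads in *set-2(bn129)* and 10, 28 and 21 in WT. In the whole list of cullin, RING and SKR genes 17 of 24 were tested, with *skr-10* called higher (1.79, adjusted p = 0.0082) and *skr-15* lower (-0.67, adjusted p = 0.013). These are 11.8% of the genes tested in the list, against 15.3% of all genes. By the adjusted p alone 2 were higher and 5 lower, against 20.3% and 21.1% of all genes. *skr-11* was higher by this measure and just under the fold threshold (0.56, adjusted p = 0.0013). *skr-10* had 15, 15 and 31 reads in *set-2(bn129)* and 2, 7 and 6 in WT, and was tested only because of its counts in the mutant.

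None of the 12 genes for neddylation and the COP9 signalosome, which switch cullin ligases on and off, was called by edgeR or DESeq2. These genes were abundant, and in the fourth and highest classes by level 2.49% and 2.12% of all genes were called. By the adjusted p alone 8 of the 12 were higher and 2 lower, against 20.3% and 21.1% of all genes tested. The same numbers passed an unadjusted p below 0.05. The 11 other F-box receptors tested likewise included 0 calls by edgeR or DESeq2, where edgeR called 15.3% of all genes tested. At an unadjusted p below 0.05 in edgeR 1 was higher and 5 lower. Among them *fog-2* had 1377 ± 17.9 normalized counts in *set-2(bn129)* and 1482 ± 72.8 in WT (adjusted p = 0.094). *lin-23*, which restrains cell division, had 3209 ± 81.1 in *set-2(bn129)* and 3736 ± 36.4 in WT (-0.22, SE 0.04, adjusted p = 6.7e-04). *fog-2* and *lin-23* were thus more abundant than most fbxa genes, whereas *dre-1* and *mfb-1* had 55.7 and 34.8 normalized counts per kilobase in WT. These were below the median fbxa gene tested, at 119.8. All 11 receptors stayed within the fold threshold.

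Other large families that hold ubiquitin ligase adaptors were measured as well. Of 163 fbxb and fbxc genes, the other F-box classes of the worm, 27 were tested. 8 were higher (29.6%, against 6.99% of all genes tested) and 0 lower (against 8.36%), with a median log2 fold change of 0.48. Of the higher genes, *fbxb-26* (3, 2 and 2 reads in WT) and *fbxb-46* (6, 2 and 8) were tested only because of their counts in the mutant. In these classes 1 gene was lower by the adjusted p alone (*fbxc-47*, -0.25, adjusted p = 0.012), as at an unadjusted p below 0.05, and 0 were lower by DESeq2. With the muscle and intestine level in the fit 4 were higher, and no share of all genes is given for this fit. *fbxb-67*, for example, had 246 ± 17.99 normalized counts in *set-2(bn129)* and 96.1 ± 12.4 in WT (1.36, SE 0.14, adjusted p = 2.9e-05). Of 92 math and bath genes 37 were tested, the bath genes encoding MATH and BTB proteins that serve cullin 3 ligases. 1 was higher (2.70%, against 6.99% of all genes tested) and 8 were lower (21.6%, against 8.36%), with a median of -0.21. *bath-45* had 53.0 ± 2.20 in *set-2(bn129)* and 124 ± 7.33 in WT (-1.23, SE 0.16, adjusted p = 1.3e-04), and *bath-38*, the single member called higher, 317 ± 12.8 in *set-2(bn129)* and 140 ± 11.6 in WT (1.18, SE 0.11, adjusted p = 1.7e-05). The fbxa family, with calls in both directions and a median of 0.04, lay between these lists, and the difference between the families was not tested. Of the 43 genes listed for the intracellular pathogen response only 5 could be tested, and *pals-25* was called higher (0.63, SE 0.18, adjusted p = 0.017). This is 20% of those tested, against 6.99% of all genes. DESeq2, over 31 of the 43 genes, called 0 higher and 1 lower.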

How the data were processed

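Each library was single-read RNA sequencing of dissected gonads. The authors mapped reads with STAR 2.4.1d to WormBase release WS254, removed reads of low mapping quality with SAMtools 0.1.19 and counted reads per gene with HTSeq 0.7.2. The deposited values are whole-number counts per gene, with no normalization, and the counting mode and strand setting are not given in the sources used here. A label gives polyadenylated RNA as the molecule, whereas the extraction protocol and the paper describe depletion of ribosomal RNA from total RNA. The authors' table of gene numbers by comparison was not used. Members were matched by WormBase symbol through the reference tables of the WBcel235 assembly, with RefSeq giving the names of the 52 pseudogenes.

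Genes were filtered with filterByExpr, scaled by TMM and tested with edgeR 4.0.16 (quasi-likelihood, R 4.3.3) on genotype alone, with Benjamini-Hochberg adjustment over 9431 genes. DESeq2 1.42.0, the tool of the study, served as an alternative. Counts were scaled to the mean effective library size (normalized counts), and divided by the union of exons in kilobases for levels per kilobase. Depth was 23403396 to 30724547 counts per library. SEs and 95% intervals are from the edgeR fit, tested on simulated data. The libraries of a genotype differed by more than counting noise (chi-square of at least 9.15 per degree of freedom), so none was a repeated sequencing of another. This cannot tell separate preparations of the same RNA from separate samples. The members and gene lists were chosen with earlier results of these data known. Genes named were the called members, the 10 of highest WT level per kilobase, those next to the fold threshold, *fbxa-75*, *fbxa-158* and their partners, and *cul-1*, *rbx-1*, *skr-1* and *skr-2*. Any other gene was chosen after its values were seen.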

Additional observations from a re-analysis of the deposited data

How the results depend on the processing

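Against 10 higher, 9 lower and 28 members past the adjusted p, 6 were higher where each library had to hold at least 10 counts (53 members tested), and 4 were higher and 2 lower with a log2 fold change of at least 1. Leaving out WT replicates 2 and 3 together gave 4 higher, 2 of them among the 10, 8 lower and 17 past the adjusted p, with WT replicate 1 then assumed to vary like the mutant libraries. The muscle and intestine level as a covariate, which itself differed between the genotypes, gave 0 higher (0 at an unadjusted p below 0.05), 9 lower, of them 8 of the original 9, and 10 past the adjusted p. Both were added after the data were seen, and no share of all genes is given for either. Leaving out each library in turn gave 7 to 13 higher, 8 to 9 lower, 22 to 31 past the adjusted p, and 160 to 167 members with reads. DESeq2's Wald test gave 9 higher, 7 of them among the 10, and a fit of all genes with a read 15 higher and 11 lower. In place of 167 with reads, 61 members had at least 10 counts in every *set-2(bn129)* library, 53 in every WT library, and 61 passed filterByExpr. *fbxa-211* missed the fold threshold alone, at -0.58 with no filter, -0.57 without *set-2(bn129)* replicate 2 and -0.55 without WT replicate 1, and the 7 other lower members of the runs were called in all 14 alternatives that kept the fold threshold, while at a log2 fold change of 1 only *fbxa-107* and *fbxa-192* were lower. The higher members lost their call in 1 (*fbxa-42*, *fbxa-153*) to 7 (*fbxa-10*) of the 13 or 14 alternatives that gave a value. *fbxa-72* reversed to 0.038 with the covariate. Values near 0 changed sign for *fbxa-95* (-0.097 to 0.0096 with each library left out, the highest without *set-2(bn129)* replicate 3, and 0.035 with the covariate) and *fbxa-215* (0.0040 with upper quartile scaling, 0.011 with no filter, and -0.035 to 0.015 with each library left out, above 0 without *set-2(bn129)* replicate 2 or WT replicate 3). The cause of these changes was not tested. Libraries of the same replicate number did not deviate together (r = -0.09, -0.05 and -0.17), and with the replicate block 10 were higher, 9 lower and 23 past the adjusted p. The share of unique windows in each member was not run, as no genome was used here. Depth limits the 106 members with reads that were not tested.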
